A study of Mus musculus with 40 samples.

Results

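Mouse lung organoids grown in the condition labelled ALL-MTG were compared with organoids grown in the condition labelled ALL, which gives 4 libraries (2 per condition, replicates 1 and 2) of the 40 in the series. The members were chosen by the titles of the libraries alone. All groups are described in the labels only as lung organoids of Mus musculus, with no strain, age, sex, genotype or number of animals. MTG, ALL, VC and 2C are not spelled out there, so they are used as names, and reading ALL as the complete condition and a minus sign as the omission of a component is an assumption. The labels do not say whether replicates were separate cultures or animals, so each p-value reflects no more than the variation among these samples. Within ALL and within ALL-MTG the replicates differed in sex-linked genes, as given below, so they were not repeats of the same RNA sample. Those of ALL-FGF10 and of ALL-VC did not differ in this way, and their variation may be technical. RNA abundance was read in TPM (the share of a gene's transcripts in a library, corrected for gene length and scaled to a fixed total), and differences were taken on log2(TPM + 1), a scale that understates changes of genes with low TPM. A gene was called when its adjusted p was under 0.05 in limma's test on the 8 numbered libraries of ALL, ALL-MTG, ALL-FGF10 and ALL-VC, adjusted by Benjamini-Hochberg over all 14802 genes tested. Each SE and p-value rests on a spread pooled over these 8 libraries, not on the 2 compared groups alone. Replicates of ALL-FGF10 (correlation 0.980) and ALL-VC (0.963) were closer to each other than those of ALL (0.937) and ALL-MTG (0.935). ALL-FGF10 and ALL-VC, read as omissions of FGF10 (a fibroblast growth factor that drives branching of the lung epithelium) and of VC, have 2 libraries each and serve as the comparison with other omissions.

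The epithelium at the tips of the growing lung renews itself while it branches, and gives rise to alveolar type 2 (AT2) cells, which make surfactant, and alveolar type 1 (AT1) cells, which form the thin surface for gas exchange. Beside surfactant, AT2 cells and airway secretory cells release proteins of innate defence: lysozymes, lipocalin, protease inhibitors, complement factors and chemokines, many of them under control of NF-kB and C/EBP factors. AT2 cells also carry MHC class II molecules. When alveolar epithelium is injured or held between fates, it is known to raise simple keratins, claudin 4, basement membrane laminins and signals of the TGF-beta family.

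Of the 14802 genes tested, 76 were called, or 0.513%. The 56 genes that fell (0.378% of those tested) were led by secreted defence genes. The 20 that rose (0.135%) included the tight junction gene Cldn4, the basement membrane genes Lama3 and Col18a1, and the TGF-beta family genes Tgfb2 and Fst. For each of the 76 the 2 ALL and the 2 ALL-MTG libraries did not overlap, as was the case for 34.8% of all genes tested. The falls ran from 1.09 to 6.09 on the log2 scale and the rises from 1.10 to 5.05, where the median over all genes tested was 0.07. The count moved with the libraries in the fit. Without ALL-MTG replicate 1 the count was 29 and without ALL-MTG replicate 2 it was 191. Leaving out ALL-FGF10 replicate 1 or 2 gave 18 or 20 genes, and leaving out either ALL-VC replicate gave 26. Leaving out ALL replicate 1 or 2 gave 63 or 81. Without ALL replicate 1 the split also moved, to 32 higher and 31 lower.

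The libraries stood apart in ways that the labels do not mention. Between 13036 and 13636 genes reached 1 TPM in each of the 8, mitochondrial genes made up 9.94 to 13.9% of the signal, and the sequencing depth is unknown because TPM keeps none. Sex-linked genes split both groups: Xist, transcribed from the inactive X chromosome, was at 6.04 and 147 TPM in ALL and at 291 and 0.31 TPM in ALL-MTG, and the Y-linked Eif2s3y was at 74.5 and 0.22 against 0.13 and 79.5 TPM. Each condition thus held 1 library of either kind, while the 4 libraries of ALL-FGF10 and ALL-VC all had Xist at or under 0.8 TPM. With the Xist level as a term in the fit, 151 genes were called, 75 of the 76 among them. ALL-MTG replicate 1 listed 21 genes of 100 to 150 nt above 0 TPM, and ALL-FGF10 54 and 119, where the others listed 0. With that listing as a term, 24 genes were called and 12 of the 76 were among them.

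Genes of lung epithelial identity were present in both conditions. Nkx2-1, the transcription factor that marks lung epithelium, was at 311 and 247 TPM in ALL and at 262 and 277 TPM in ALL-MTG. Epcam and Cdh1, which hold epithelial cells together, were at 279, 258, 413, 315 and at 285, 196, 278, 238 TPM in the same order of libraries. Of the 16 lung epithelial identity genes, 0 were called by limma, and 3 had an unadjusted p under 0.05, as did 1924 of all 14802. Their median log2 difference was 0.06, and it ran from -0.12 without ALL replicate 2 to 0.31 without ALL replicate 1. Markers of other cells were sparse: Ptprc and Tyrobp, which define leukocytes, were at 0 in all 4 libraries, and 7 of 8 endothelial, 5 of 6 neural and 5 of 6 mesothelial markers were under 1 TPM in each. Mesenchymal markers were the exception, and they did not follow the conditions alone. Their summed level was 132 and 11.2 TPM in ALL and 291 and 86.6 TPM in ALL-MTG. Of this, the member gene Vim held 25.3 and 5.1 TPM in ALL and 84.8 and 70.9 TPM in ALL-MTG. Col3a1, a fibrillar collagen of fibroblasts, was at 45.2 and 0.8 TPM in ALL and at 0 in both ALL-MTG libraries, whereas Dcn, the proteoglycan decorin, was at 7.24 and 3.65 against 168 and 6.57 TPM.

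The steepest fall was in secreted mucosal defence. Of 16 genes listed for it, 10 were tested, 6 fell and 0 rose, and the median difference was -3.60. Over all genes tested, 0.378% fell. Chil1, a chitinase-like protein secreted by AT2 cells and macrophages (chr1:134182176-134190181, GRCm38), was at 2615 and 793 TPM in ALL and at 9.36 and 42.3 TPM in ALL-MTG, a difference of -6.09 ± 0.72 (SE, n = 2 each, adjusted p = 0.0261). Even the lower ALL library held far more Chil1 than the higher ALL-MTG library, and the ALL-FGF10 (2303 and 1828 TPM) and ALL-VC libraries (504 and 786 TPM) lay with ALL. Lcn2, the iron-binding lipocalin 2 that starves bacteria (chr2:32384633-32388252), was one of the most abundant defence transcripts, at 3700 and 5707 TPM in ALL and 223 and 585 TPM in ALL-MTG (-3.67 ± 0.43, adjusted p = 0.0257). Cd177, a surface glycoprotein best known from neutrophils, was at 38.2 and 70.3 TPM against 0.34 and 0.67 TPM (-5.14, adjusted p = 0.0128). The 12 blood and immune markers, 8 of them at 0 in all 4 libraries with Ptprc and Tyrobp among these, summed to 2.07 to 4.87 TPM.

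Pigr, which transports IgA through epithelial cells to the lumen (chr1:130826684-130852249), was at 93.0 and 103 TPM in ALL and at 1.79 and 6.95 TPM in ALL-MTG (-4.39, adjusted p = 0.0328). The lysozyme gene Lyz2, an AT2 marker in mouse, was at 200 and 309 against 13.0 and 32.1 TPM (-3.54, adjusted p = 0.0267), and the protease inhibitor gene Slpi at 323 and 637 against 119 and 118 TPM (-1.93, adjusted p = 0.0384). Lyz1, a near-identical copy of Lyz2, showed values of 1201 and 3114 against 40.6 and 516 TPM (-3.72) and did not pass the test (adjusted p = 0.193), and reads shared between the copies may have been split. Wfdc2, another secreted inhibitor, was at 633 and 816 against 510 and 493 TPM (-0.52, not called), a much smaller difference than that of Lcn2.

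**Figure D1:**
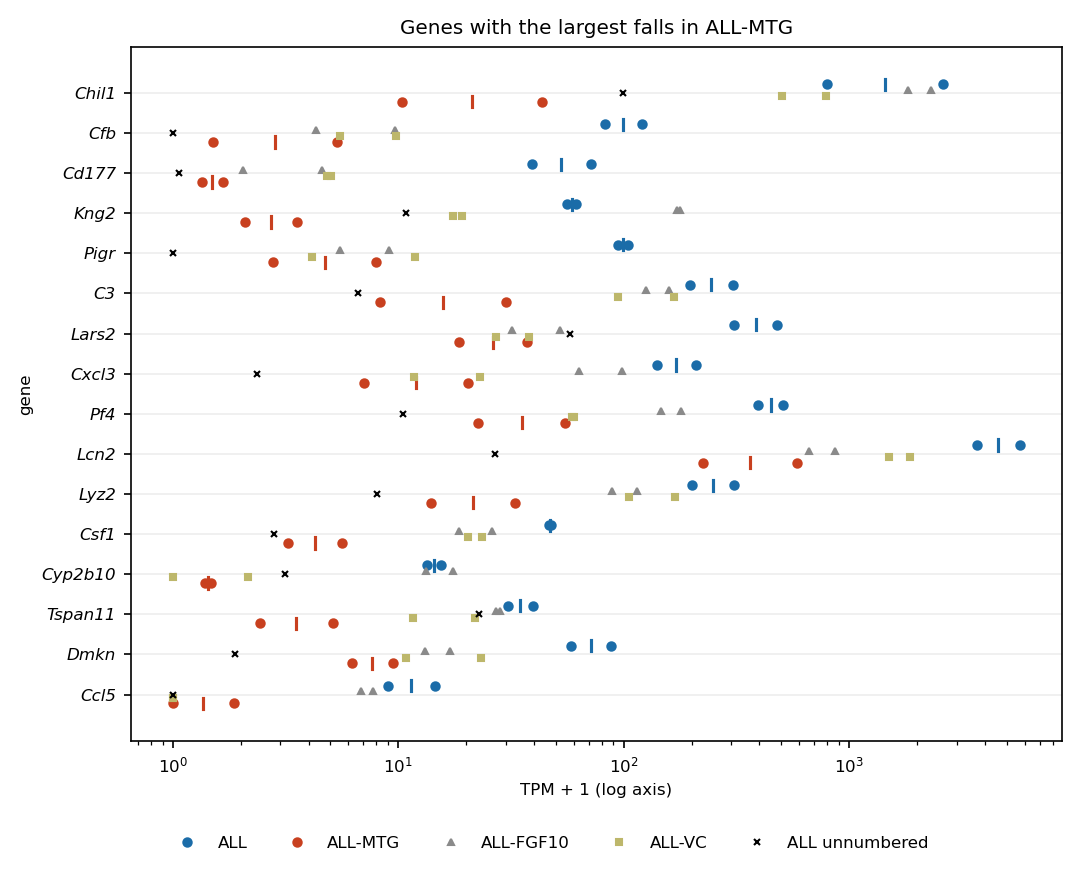
TPM + 1 on a log axis in each library for the 16 called genes with the largest falls among those of at least 5 TPM in ALL (circles for ALL and ALL-MTG with a bar at the mean of log2 values, triangles ALL-FGF10, squares ALL-VC, cross the unnumbered ALL library of another table). Genes with predicted, clone or accession-like names were left out. For every gene both ALL-MTG circles lie left of both ALL circles, while the cross lies near or left of the ALL-MTG circles for most, as for Cfb and Pigr, both at 0 there.

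Genes of the complement system fell too. Of 17 complement and acute phase genes 11 were tested, and 4 fell, against 0.378% of all genes tested, and 0 rose. The median was -1.97, and -1.21 without ALL-MTG replicate 1. The 4 were Cfb, C3, C2 and Lcn2, which is also in the mucosal defence list. Cfb, factor B of the alternative pathway (chr17:34856374-34862518), was at 119 and 81.8 TPM in ALL and at 0.5 and 4.32 TPM in ALL-MTG (-5.14 ± 0.64 SE, adjusted p = 0.0286). C3, the protein on which all complement pathways converge (chr17:57203970-57228136), was at 304 and 195 against 7.27 and 28.9 TPM (-3.96, adjusted p = 0.038). C2, which neighbours Cfb and acts in the classical pathway, was at 12.0 and 13.9 against 0.98 and 0.88 TPM (-2.85, adjusted p = 0.013). These genes did not share a pattern across the other omissions: C3 stood at 158, 125, 92.9 and 166 TPM in the ALL-FGF10 and ALL-VC libraries, between the 2 conditions, whereas Cfb stood at 3.31 to 8.72 TPM there, close to ALL-MTG. Hc, complement component 5, was at 137 and 192 against 164 and 160 TPM and so was even between the conditions (0.00).

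Chemokines and growth factors of myeloid cells formed a further group. Of 23 chemokine and NF-kB genes 20 were tested and 3 fell, against 0.378% of all genes tested. The median was -1.07, but -0.58 without ALL-MTG replicate 1 and -0.65 without ALL replicate 2. Cxcl3, a neutrophil attractant, was at 139 and 208 TPM in ALL and at 6.06 and 19.4 TPM in ALL-MTG (-3.83, adjusted p = 0.0329). Csf1, the growth factor of macrophages (chr3:107741048-107760469), was tight within groups, at 46.7 and 45.8 against 2.24 and 4.62 TPM (-3.47 ± 0.30 SE, adjusted p = 0.0128). Birc3, an inhibitor of apoptosis and NF-kB target, was at 58.3 and 65.8 against 18.5 and 22.8 TPM (-1.55, adjusted p = 0.0218). Outside the lists, the chemokine gene Pf4 (509 and 394 against 21.5 and 54.1 TPM, -3.67) fell as well. Other NF-kB targets were not called, with Nfkbia, which holds NF-kB in the cytoplasm, at 83.8 and 128 against 56.0 and 110 TPM (-0.39) and Tnfaip3 at 16.6 and 24.6 against 12.9 and 32.7 TPM (0.03).

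The stretches below lie upstream of a RefSeq transcript start (GRCm38.p6, each on the gene's own strand), which for Lcn2, Kng2 and Rcan1 is inside the gene's span in the annotation used for gene coordinates. They belong to genes that fell or rose, and are shown because their promoters hold a match, in capitals, to a motif of an NF-kB, C/EBP or AP-1 factor. For NF-kB, in genes that fell:
Chil1 (chr1:134181952-134182011, + strand): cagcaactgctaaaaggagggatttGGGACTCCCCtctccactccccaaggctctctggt
Cxcl3 (chr5:90786003-90786062, + strand): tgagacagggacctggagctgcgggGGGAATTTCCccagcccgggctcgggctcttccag
Csf1 (chr3:107760589-107760648, - strand): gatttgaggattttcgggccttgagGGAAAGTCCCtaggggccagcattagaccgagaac
For C/EBP, in genes that fell:
Lcn2 (chr2:32387923-32387980, - strand): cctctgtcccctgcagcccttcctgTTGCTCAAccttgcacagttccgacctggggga
C3 (chr17:57228149-57228206, - strand): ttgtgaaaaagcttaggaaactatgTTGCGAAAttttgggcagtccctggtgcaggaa
Kng2 (chr16:23029181-23029238, - strand): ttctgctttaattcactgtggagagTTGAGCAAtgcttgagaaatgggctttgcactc
For AP-1, in genes that rose:
Cldn4 (chr5:134947143-134947184, - strand): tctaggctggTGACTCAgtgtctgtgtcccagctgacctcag
Rcan1 (chr16:92400157-92400213, - strand): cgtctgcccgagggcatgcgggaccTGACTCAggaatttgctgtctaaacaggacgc

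Motifs were searched on both strands in the 250 bases before each start in the table, and a RefSeq window was found for 39 of the 56 genes that fell and 11 of the 20 that rose. The NF-kB consensus was present in 8 of the 39 (20.5%) and 0 of the 11, against 1070 of the 10211 tested genes with a window and 7.25% of all 32851 windows. The C/EBP letters TTGCNNAA were in 11 of the 39 (28.2%) and in 1 of the 11, against 8.8% of tested genes and 9.56% of windows. The AP-1 letters TGANTCA were in 2 of the 39 (5.13%) and in 3 of the 11 (27.3%), which were Aldh1a1, Cldn4 and Rcan1, against 5.4% of tested genes and 6.75% of windows. No motif is contained in another, and all were chosen with the called genes known. A match describes the sequence only.

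Of 15 antigen presentation genes tested, 3 fell, all of MHC class II, against 0.378% of all genes tested, and 0 rose. All 15 had a difference below 0 (median -1.22), as did 6148 of all 14802 genes tested. H2-Aa, the class II alpha chain, was at 665 and 762 TPM in ALL and at 159 and 87.0 TPM in ALL-MTG (-2.58, adjusted p = 0.0328), and H2-Ab1, the beta chain, at 406 and 438 against 114 and 50.6 TPM (-2.45, adjusted p = 0.0328). Cd74, the invariant chain that escorts class II to the endosome, was the most abundant of the list, at 2302 and 2600 against 919 and 592 TPM (-1.73, adjusted p = 0.0471). H2-Eb1 was at 134 and 168 against 1.89 and 28.9 TPM (-4.02, adjusted p = 0.12). For class II, ALL-MTG was not the lowest of the omissions: ALL-FGF10 held 199 and 208 TPM of H2-Aa, and ALL-VC 23.5 and 47.3 TPM. The class I genes H2-K1 (854 and 704 against 608 and 446 TPM, -0.57) and B2m (961 and 466 against 250 and 355 TPM, -1.17) were not called.

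Of the 22 interferon response genes tested, 0 were called by limma and 15 had an unadjusted p under 0.05, as did 1924 of all 14802. All 22 differences were below 0 (median -1.95), as were 6148 of all 14802. The spread between the ALL libraries was wide here, and the median was -1.03 without ALL replicate 1 and -2.97 without ALL replicate 2. Isg15, a ubiquitin-like protein induced by interferon, was at 78.6 and 10.9 TPM in ALL and at 1.3 and 1.67 TPM in ALL-MTG (-3.63, adjusted p = 0.135). Bst2, which tethers budding viruses to the cell, was at 172 and 62.5 against 20.8 and 34.1 TPM (-1.92, adjusted p = 0.129). ALL replicate 1 was the highest library of the 4 for all 22.

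Of 20 AT2 genes tested, Chil1 and Lyz2, both also in the mucosal defence list, were the 2 called (median -0.68). Over all genes tested, 0.513% were called. The difference was below 0 for 16 of the 20, as for 6148 of all 14802 genes tested. For 13 of the 20 both ALL-MTG libraries lay below both ALL libraries, as for 14.8% of all genes tested. Sftpc, the most abundant AT2 transcript, was at 53158 and 86843 TPM in ALL and at 80426 and 78632 TPM in ALL-MTG (0.23, adjusted p = 0.776), with overlapping groups. Sftpb was at 5759 and 6912 against 4030 and 5710 TPM (-0.40). The soluble collectins of surfactant bind microbes. Sftpa1 was at 1624 and 1464 against 291 and 407 TPM (-2.16, adjusted p = 0.0734) and Sftpd at 1319 and 1674 against 217 and 607 TPM (-2.03, adjusted p = 0.105). Neither passed the test, though the groups did not overlap for either. Cebpa, a transcription factor of AT2 cells, was at 174 and 189 against 81.4 and 120 TPM (-0.87, adjusted p = 0.12). Among 17 AT1 genes only Cyp2b10, a cytochrome P450, fell (14.4 and 12.4 against 0.39 and 0.47 TPM, -3.33, adjusted p = 0.0261). The AT1 median was -0.13, and it was 0.04 without ALL replicate 1 and -0.31 without ALL replicate 2. Hopx, an AT1 marker, was at 188 and 218 against 214 and 210 TPM (0.07). In bulk RNA, fewer cells of a type and less RNA per cell cannot be told apart.

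Kng2, a kininogen gene with a close copy in Kng1 (chr16:22985854-23029482), kept its call under all 19 alternative settings. It was at 60.4 and 55.3 TPM in ALL and at 1.08 and 2.55 TPM in ALL-MTG (-4.44 ± 0.26 SE, adjusted p = 0.00177), while ALL-FGF10 held 172 and 176 TPM and ALL-VC 18.2 and 16.4 TPM. All 4 groups were thus apart from each other for Kng2, with ALL-MTG the lowest. Igfbp7, a secreted binding protein for insulin-like growth factors, had the smallest error of the falls, at 365 and 335 against 124 and 135 TPM (-1.43 ± 0.12 SE, adjusted p = 0.0128), and was called under 18 of the 19. S100g, the calbindin that buffers calcium in absorbing epithelia, was at 203 and 268 against 27.8 and 52.9 TPM (-2.57, adjusted p = 0.0218). Trpv6, the calcium channel that works with it, was at 28.6 and 17.4 against 1.94 and 6.7 TPM and was not called (-2.30, adjusted p = 0.0822).

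Of 18 ion transport genes tested, 1 fell, Slc26a4, and 1 rose, Cacna1a, described below (median -0.03). Slc26a4, the anion exchanger pendrin, was at 222 and 129 against 26.4 and 36.1 TPM (-2.42, adjusted p = 0.0317). The glucose transporter gene Slc5a1, which is in none of the lists, was at 8.14 and 6.41 against 1.19 and 1.5 TPM (-1.81, adjusted p = 0.0384). Gclc, the catalytic subunit of the enzyme that limits glutathione synthesis (chr9:77754535-77794485), was at 141 and 126 against 64.4 and 59.7 TPM (-1.09 ± 0.14 SE, adjusted p = 0.0286). Its partner Gclm, the modifier subunit, showed values in the other direction, at 25.4 and 28.1 against 73.7 and 41.2 TPM (1.02, not called). Of 23 genes of the NRF2, thiol and metal list Gclc was the only one called, and the list median was -0.05, or -0.19 to -0.11 with 1 of the 4 libraries left out. In limma's test 14 of the 23 had an unadjusted p under 0.05, as did 1924 of all 14802. The members went in both directions, with 9 differences above 0 and 14 below 0. The metallothionein gene Mt2 was at 9.76 and 34.9 against 106 and 101 TPM (2.41, adjusted p = 0.105).

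Lars2, the mitochondrial leucyl-tRNA synthetase, was at 307 and 480 TPM in ALL and at 17.5 and 36.2 TPM in ALL-MTG (-3.88, adjusted p = 0.0197). A pair of entries at an rRNA locus fell alongside it. CT010467.1 (chr17:39846353-39848827), annotated as rRNA, was at 1374 and 2375 against 211 and 287 TPM (-2.87, adjusted p = 0.013), and AY036118, which lies inside it, at 1109 and 1738 against 129 and 141 TPM (-3.35, adjusted p = 0.00247). All 3 were higher in ALL than in every other numbered library, with Lars2 at 26.2 to 51.1 TPM in ALL-FGF10 and ALL-VC. Reads of rRNA in these libraries and their part in the Lars2 value were not tested.

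Among the genes that rose, Cldn4 acts in the epithelial barrier. It codes for claudin 4, a tight junction protein that seals epithelium (chr5:134945119-134946934), and was at 44.3 and 75.8 TPM in ALL and at 279 and 217 TPM in ALL-MTG (2.07 ± 0.27 SE, adjusted p = 0.0317). The other groups were all below ALL-MTG, with 12.4 and 10.0 TPM for ALL-FGF10 and 77.2 and 89.4 TPM for ALL-VC. Of the 17 tight junction genes tested, Cldn4 was the 1 called, and the list median was 0.18, from 0.08 without ALL replicate 2 to 0.35 without ALL replicate 1. Cldn18, the main claudin of alveolar cells, was at 463 and 476 against 460 and 586 TPM (0.15), and Tjp1 at 83.6 and 53.9 against 93.6 and 74.5 TPM (0.31).

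**Figure D2:**
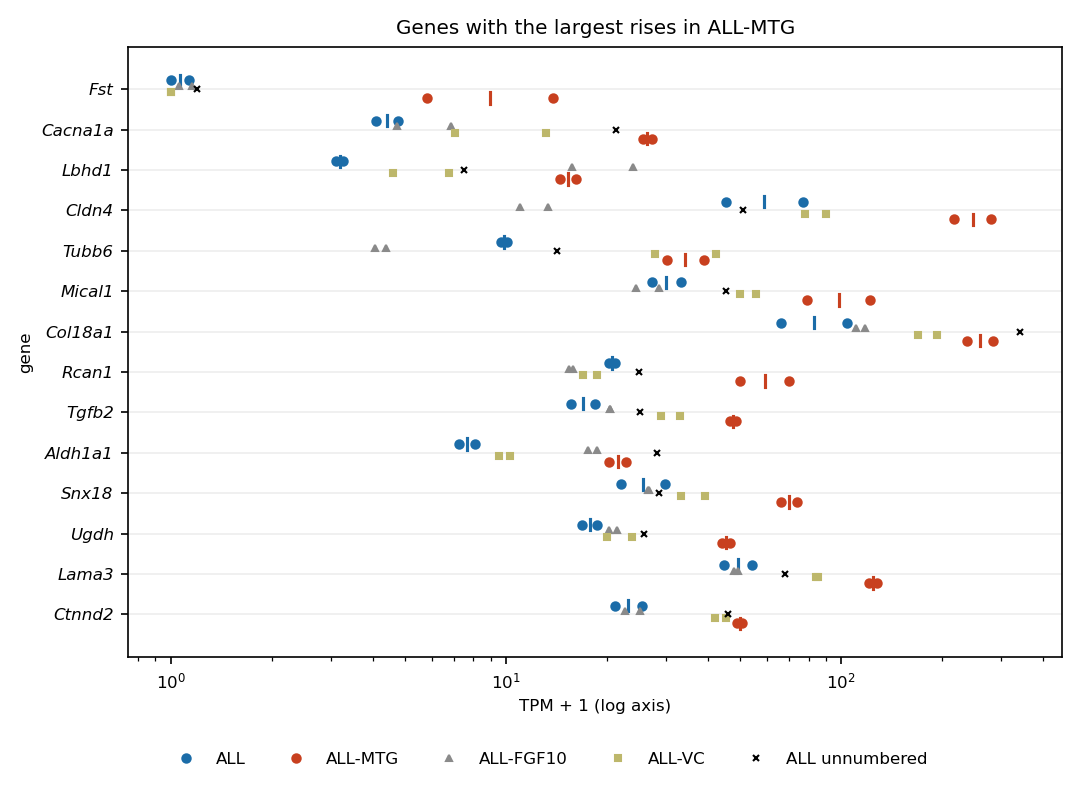
TPM + 1 on a log axis in each library for the 14 called genes with the largest rises among those of at least 5 TPM in ALL-MTG (circles for ALL and ALL-MTG with a bar at the mean of log2 values, triangles ALL-FGF10, squares ALL-VC, cross the unnumbered ALL library). Genes with predicted, clone or accession-like names were left out. Both ALL-MTG circles lie right of both ALL circles for each gene. They also lie right of every other symbol for Fst, Cldn4, Rcan1, Snx18, Ugdh, Lama3, Tgfb2, Mical1, Cacna1a and Ctnnd2.

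Of 17 genes of simple keratins and transitional epithelium tested, Cldn4 rose and 0 fell. A difference above 0 was seen in 16 of them (median 0.91), as in 8504 of all 14802 genes tested. Krt8 was at 267 and 254 against 598 and 399 TPM (0.91, adjusted p = 0.107) and Krt19 at 92.9 and 88.2 against 172 and 153 TPM (0.83, adjusted p = 0.0935). Areg, an EGF receptor ligand, was at 38.2 and 24.3 against 106 and 103 TPM (1.74, adjusted p = 0.0517), and Cdkn1a, the cell cycle inhibitor p21, at 45.5 and 36.5 against 137 and 88.2 TPM (1.41, adjusted p = 0.054). Clu, the secreted chaperone clusterin, was at 862 and 896 against 4197 and 1929 TPM (1.69, adjusted p = 0.0746). In each of these both ALL-MTG libraries lay above both ALL libraries, as for 20.0% of all genes tested.

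Of 20 basement membrane genes tested, 2 rose, against 0.135% of all genes tested. The difference was above 0 for 19 of them, as for 8504 of all 14802 genes tested. The median was 0.35, but 0.09 without ALL replicate 2, 0.21 without ALL-MTG replicate 1, 0.63 without ALL replicate 1 and 0.58 without ALL-MTG replicate 2. Lama3, an alpha chain of the laminin that anchors epithelium, was at 53.4 and 43.8 TPM in ALL and at 127 and 120 TPM in ALL-MTG (1.34 ± 0.15 SE, adjusted p = 0.0218). Lamb3, a beta chain of the same laminin, was at 182 and 146 against 167 and 188 TPM (0.12) and was not called. Col18a1, the collagen that carries endostatin (chr10:77052178-77166548), was at 65.0 and 103 against 284 and 236 TPM (1.65, adjusted p = 0.0317), and Hspg2, perlecan, at 15.0 and 22.6 against 56.1 and 48.6 TPM (1.45, adjusted p = 0.054). Lamb1 was the exception, at 24.6 and 20.3 against 3.63 and 9.64 TPM (-1.73, adjusted p = 0.106).

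In the TGF-beta and BMP family 2 of 22 genes rose (median 0.46, and 0.73 without ALL replicate 1), against 0.135% of all genes tested. The difference was above 0 for 18 of them, as for 8504 of all 14802 genes tested. Among the ligands, Tgfb2 (chr1:186622792-186705989) was at 17.4 and 14.6 TPM in ALL and at 47.7 and 45.6 TPM in ALL-MTG (1.49 ± 0.17 SE, adjusted p = 0.0252), while Tgfb3 (75.7 and 72.3 against 120 and 72.4 TPM, 0.33) and Tgfb1 (-0.29) were not called. Bmp4, the ligand of distal tips, was at 147 and 156 against 233 and 325 TPM (0.86, adjusted p = 0.214). Among the inhibitors, Fst, follistatin, which traps activin (chr13:114452290-114458951), was listed at 0 and 0.13 TPM in ALL and at 12.8 and 4.83 TPM in ALL-MTG (3.08, adjusted p = 0.038), and Nog, which traps BMP, was at 0.73 and 0 against 5.54 and 2.71 TPM (1.90, adjusted p = 0.149). The receptors Tgfbr1 (0.64) and Tgfbr2 (0.42) and the targets Id1 (-0.45) and Smad7 (0.47) were not called. Fst was at most 0.16 TPM in the 4 libraries of the other omissions. It was higher in the ALL-MTG library with the higher mesenchymal sum (291 TPM, 84.8 TPM of it Vim) than in the other (86.6 TPM, 70.9 TPM of it Vim). The part of mesenchymal RNA in the rise of Fst was not tested.

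The remaining rises had varied roles. Rcan1, an inhibitor of the phosphatase calcineurin and a target of its signalling (chr16:92391953-92470867), was at 20.2 and 19.3 against 68.9 and 49.1 TPM (1.51, adjusted p = 0.0317), and the 4 libraries of the other omissions held 14.4 to 17.7 TPM. Cacna1a, the pore of a voltage-gated calcium channel, was at 3.77 and 3.11 against 26.3 and 24.6 TPM (2.58, adjusted p = 0.0317). Aldh1a1, which makes retinoic acid, was at 6.27 and 7.08 against 19.3 and 21.9 TPM (1.49, adjusted p = 0.0317). Mical1, an oxidase that takes actin filaments apart, was at 26.2 and 32.4 against 78.3 and 121 TPM (1.70), and the tubulin gene Tubb6 at 9.11 and 8.66 against 29.3 and 37.9 TPM (1.80). Ugdh, which supplies the sugar for hyaluronan, was at 17.7 and 15.9 against 43.2 and 45.5 TPM (1.35), and the endosomal adaptor gene Snx18 at 28.9 and 21.1 against 73.0 and 65.2 TPM (1.45). Of the 20 rises, 6 were predicted or clone genes, among them Gm10320 at 0 in both ALL libraries and at 20.2 and 50.6 TPM in ALL-MTG.

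Of 12 WNT target genes tested, 0 were called by limma and 8 had an unadjusted p under 0.05 (median 1.04, 9 above 0). Over all 14802 genes tested, 1924 had such a p and 8504 differences were above 0. Axin2, a feedback inhibitor and standard readout of WNT signalling, was at 17.6 and 9.66 against 34.2 and 29.5 TPM (1.22, adjusted p = 0.18) and Lef1 at 4.02 and 1.63 against 7.13 and 12.1 TPM (1.51, adjusted p = 0.18). Sox9, the transcription factor of distal tip progenitors, was at 23.4 and 22.4 against 52.5 and 45.6 TPM (1.06, adjusted p = 0.0512), and the 15 distal tip genes had a median of 0.56, which was 0.37 without ALL replicate 1 or without ALL-MTG replicate 2 and 0.84 without ALL replicate 2. Of 20 cell cycle genes 0 were called by limma, 1 had an unadjusted p under 0.05 and all 20 differences were above 0 (median 0.54). ALL replicate 2 was the lowest of the 4 libraries for all 20. Mki67, a marker of dividing cells, was at 22.9 and 7.73 against 20.3 and 27.7 TPM (0.78, adjusted p = 0.5). With each of the 4 libraries left out in turn and under 2 other scalings, the WNT target median ran from 0.69 to 1.24 and the cell cycle median from 0.14 to 0.93. In both the low end was without ALL replicate 2 and the high end without ALL replicate 1.

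**Figure D3:**
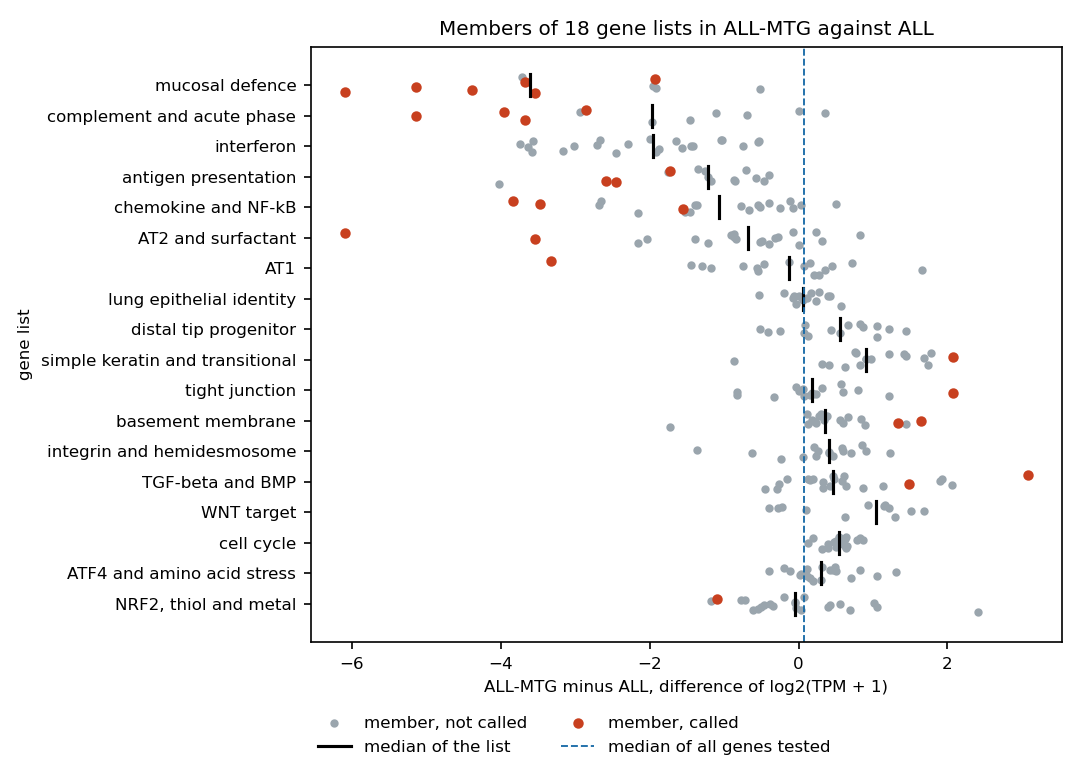
Difference of log2(TPM + 1) between ALL-MTG and ALL for each tested member of 18 gene lists (grey, not called, red, called), with a black bar at the median of the list and a dashed line at the median of all genes tested, 0.07. The mucosal defence median is at -3.60 and the simple keratin and transitional median at 0.91.

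ALL-MTG was then compared with the mean of ALL-FGF10 and ALL-VC, which asks what sets this omission apart from the other omissions. The difference itself holds no ALL library, but the ALL libraries enter the shared estimate of spread, and the ALL-MTG libraries are those of the comparison above. Of the 14802 genes 173 were called (1.17%), 88 higher (0.595%) and 85 lower (0.574%) in ALL-MTG. All 4 libraries of the other omissions were low in Xist and 1 ALL-MTG library was not, and a fit with the Xist level added called 49 genes, of which 40 belong to the 173. With only the compared groups in the fit, 280 were called. Leaving out predicted genes, Chil1 (-5.75, adjusted p = 0.00984), Kng2 (-4.38 ± 0.22 SE, adjusted p = 0.00022) and S100g (-2.86, adjusted p = 0.00431) were among the 8 largest differences below 0 that the naming rule took. C3 (-3.08, adjusted p = 0.0374), Lyz2 (-2.43, adjusted p = 0.0326) and Csf1 (-2.37, adjusted p = 0.0101) were also lower than in the other omissions. Cfb (-1.29, adjusted p = 0.345), Pigr (-0.58, adjusted p = 0.661), Lars2 (-0.46, adjusted p = 0.585) and H2-Aa (0.50, adjusted p = 0.507) were not called there.

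Leaving out predicted genes such as Gm10320 (4.57), the largest difference above 0 among the called genes that the naming rule took was that of Apoe, the apolipoprotein of lipid transport. It was at 1457 and 187 TPM against 4.44, 3.85, 75.4 and 126 TPM (4.54, adjusted p = 0.0356). The mesenchymal gene Dcn had a larger difference (4.93) but was not called (adjusted p = 0.0794), at 168 and 6.57 TPM in ALL-MTG. Vim, the intermediate filament of mesenchymal and migrating cells, was at 84.8 and 70.9 TPM against 2.65 to 10.4 TPM (3.53, adjusted p = 0.0326). The ALL libraries held 69.7 and 39.5 TPM of Apoe and 25.3 and 5.1 TPM of Vim, and neither gene was called against ALL. The summed mesenchymal level was 5.97 to 12.6 TPM in ALL-FGF10 and ALL-VC. Vim and Dcn are themselves in that sum, so it is no separate measure for them. The part of mesenchymal RNA in the Apoe difference was not tested. Cldn4 (2.95, adjusted p = 0.00335), Fst (3.09, adjusted p = 0.0166) and the scavenger receptor gene Scara3 (46.1 and 29.6 TPM against 0.09 to 5.02 TPM, 3.63) were higher as well.

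Of the 17 simple keratin and transitional genes, 8 were higher and 0 lower in this comparison (median 1.29), where 0.595% of all genes tested were higher. The 8 included Krt8 (1.29, adjusted p = 0.0179), Krt18 (1.60, adjusted p = 0.0129), Areg (1.87, adjusted p = 0.0177) and Clu (1.97, adjusted p = 0.023). ALL-MTG held 644 and 444 TPM of Krt18, ALL-FGF10 153 and 144 TPM, ALL-VC 210 and 209 TPM and ALL, in between, 264 and 369 TPM. Of the 19 genes of the ATF4 pathway, which answers to amino acid shortage, 5 were higher, among them Asns (35.4 and 64.0 TPM against 11.9 to 22.0 TPM, 1.59, adjusted p = 0.0436), Trib3 (1.47) and Atf5 (1.26). In ALL-MTG against ALL, 0 of these 19 genes were called (median 0.30). Without ALL-FGF10 replicate 1 or 2 the count of 173 genes called against the other omissions fell to 22 and 20, and without ALL-VC replicate 1 or 2 to 58 and 44. It was 69 without ALL-MTG replicate 1, 301 without replicate 2, and 283 without either ALL replicate.

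Across the 8 libraries the 56 falls came in more than 1 shape. For 32 of them both ALL-MTG libraries were below all 6 others, as for Chil1, Kng2, S100g, Igfbp7 and Adamts1, where 4.71% of all tested genes showed this. For 36 both ALL libraries were above all 6 others, as for Cfb, Pigr, Lars2, Cxcl3 and H2-Aa, where 4.24% of all tested genes did. Both held for some genes, such as Lcn2, Cd177 and C3. Of the 20 rises, 18 had both ALL-MTG libraries above all 6 others, against 5.00% of tested genes, and Tubb6 and Lbhd1 were the exceptions. These shapes use the libraries that made the call and are a description.

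A further library labelled ALL carries no replicate number and stands in another table, so it serves only as an outside check with levels that may not be on the same scale. For 46 of the 56 falls its value was nearer to ALL-MTG than to ALL, and for 15 of the 15 called genes of the mucosal defence, complement, antigen presentation and chemokine lists. It held Cfb and Pigr at 0, Cd177 at 0.06, Lcn2 at 25.8, Cxcl3 at 1.35 and Csf1 at 1.82 TPM. The 10 falls for which it was nearer to ALL included S100g (291 TPM), Igfbp7 (349 TPM), Adamts1 (77.1 TPM), Zfp36 (208 TPM) and Tspan11 (21.8 TPM). For the rises it was nearer to ALL in 12 of 20, with Cldn4 between its 2 values in ALL, Lama3 at 67.2, Tgfb2 at 24.1, Rcan1 at 24.0, Ugdh at 24.8 and Fst at 0.2 TPM, but nearer to ALL-MTG for Col18a1 (340 TPM), Cacna1a (20.3 TPM) and Aldh1a1 (27.2 TPM). Over all genes tested it was nearer to ALL in 48.0%. The defence genes that fell against the numbered ALL libraries were therefore not high in every library labelled ALL.

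The series also holds 1 library labelled 2C and 1 labelled 2C+MTG, which were set side by side with no test. Over all genes tested the median of 2C+MTG minus 2C was -0.11, over the 56 falls it was -0.02 and over the 20 rises 0.20. Cd74 was at 2.87 TPM in 2C and at 108 TPM in 2C+MTG, and H2-Aa at 1.25 and 25.4 TPM, so both were higher in the 1 library with MTG added. The unnumbered ALL library, at 586 TPM of Cd74, 142 TPM of H2-Aa and 86.5 TPM of H2-Ab1, was nearer to ALL-MTG than to the numbered ALL libraries for all 3 class II genes that fell. Kng2 was at 2.54 and 0.55 TPM, C3 at 4.38 and 0.73 TPM and Lcn2 at 9.41 and 3.96 TPM, all low in both. Of the genes that rose, Lama3 (49.4 and 120 TPM), Col18a1 (69.8 and 265 TPM) and Cacna1a (1.83 and 14.1 TPM) were also higher in the library with MTG added. The 2 libraries also differed in Xist (446 and 0.21 TPM).

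**Figure D4:**
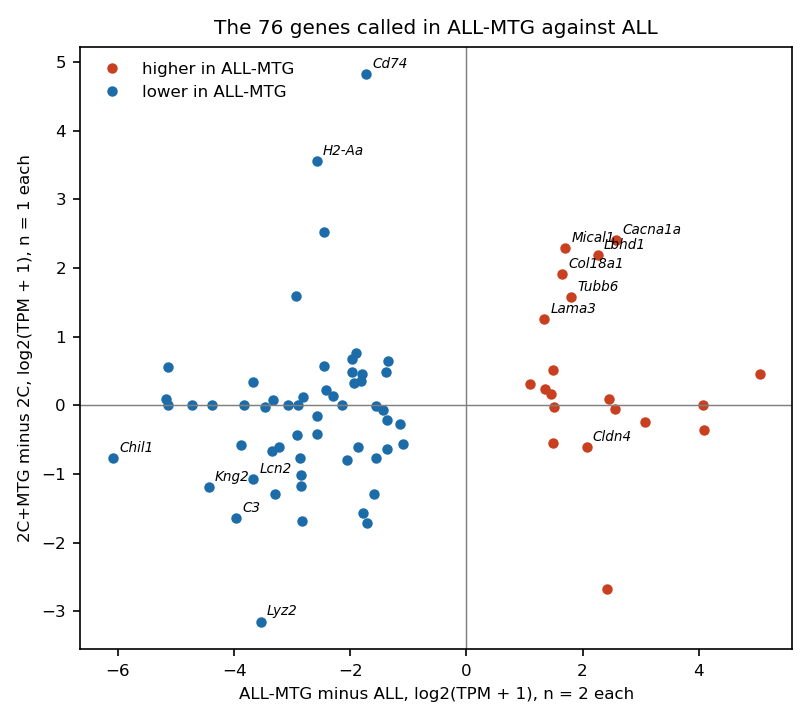
Each of the 76 called genes by its log2 difference between ALL-MTG and ALL (horizontal axis, n = 2 each) and between 2C+MTG and 2C (vertical axis, n = 1 each), red where higher and blue where lower in ALL-MTG. A gene that went one way with MTG in both settings lies in the upper left or lower right, as Cd74 does, whereas Lama3 and Lyz2 do not.

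Few single calls withstood every setting. Of the 76, 3 were called under all alternatives that were tried: Kng2, the pseudogene Gm7887 and AY036118. Cd177 and Csf1 were called under 17 of 19, Pf4 and C2 under 16, Lcn2 under 13 and Chil1, Lama3 and Tgfb2 under 11. Cldn4 and Col18a1 were called under 7, C3 and Cxcl3 under 6, and Cd74 under 3. Fst was called under 4 of the 16 settings that tested it. Of the 76, 43 lost the call under more than 9 settings. None of the 76 changed its sign in any setting.

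**Figure D5:**
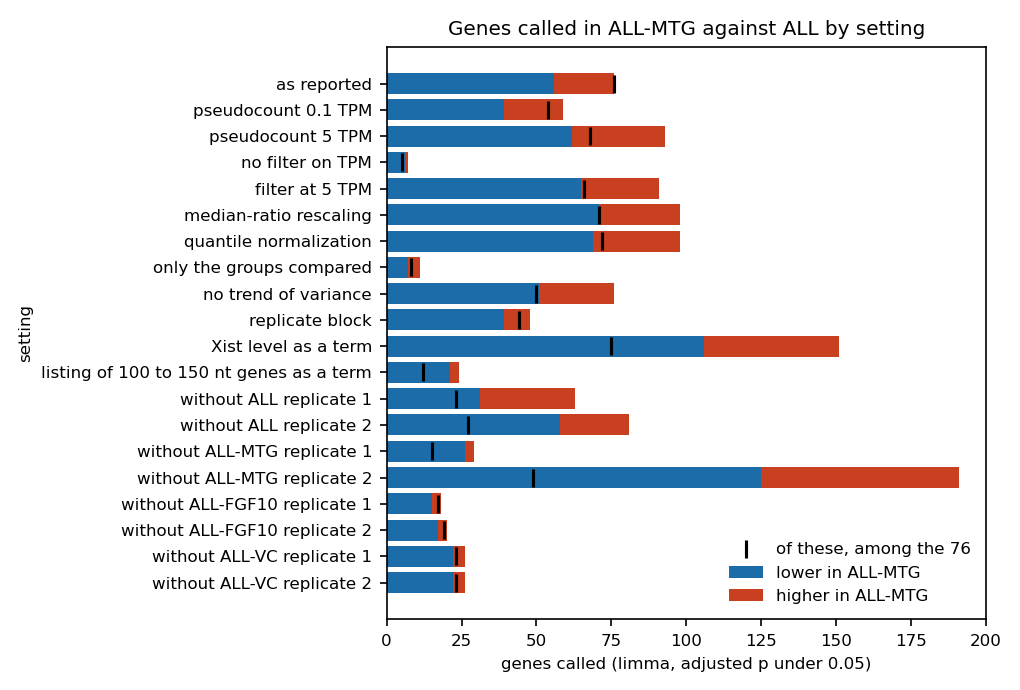
Number of genes called in ALL-MTG against ALL under the reported and each alternative setting (blue lower, red higher in ALL-MTG), with a black tick for how many of them are among the 76. The count runs from 7 without a filter on TPM to 191 without ALL-MTG replicate 2.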

How the data were processed

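Per the labels' protocols, TRIzol was used for RNA extraction and a VAHTS mRNA-seq kit for the libraries, read on an Illumina instrument. The authors deposited TPM values per gene. Per the submitters' processing notes, RSEM, Bowtie2 and the genome mm10 were used. Versions, filters, strandedness and annotation are not given in the sources used here. TPM keeps no depth, so the counting precision is unknown. Columns were matched to samples by title.

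The 55260 symbols were matched to GENCODE M21 on GRCm38 for coordinates. Genes with at least 1 TPM in at least 2 of the 8 numbered libraries were tested with limma 3.58.1 in R 4.3.3 (lmFit, eBayes with a trend of variance), two-sided, on log2(TPM + 1) with 1 group mean per condition and no covariate, and adjusted over the genes of each of the 2 contrasts. The procedure was tested on simulated data. Tables and figures used Python 3.11.15, pandas 2.3.3, numpy 2.4.6 and matplotlib 3.10.9. Promoter windows came from RefSeq on GRCm38.p6.

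The libraries compared, the 47 gene lists (697 genes from textbook knowledge) and the tests were chosen with earlier results of these data known. Genes were named by rule: the 14 largest rises and 16 largest falls called, with a mean of at least 5 TPM in the higher group, no overlap between groups and no predicted, clone or mitochondrial name, every called list member, the 3 most abundant members of each list, and the 8 largest rises and falls against the other omissions. Genes named beyond it, such as Wfdc2, H2-Eb1, Gclm and Sox9, and the 2C values were chosen after their values were seen. Not every gene that the rule took is discussed, and Muc20, Cxcl5, Cxcl15 and Retnla are among those left out. Alternatives were other pseudocounts (0.1 and 5 TPM), filters (none and 5 TPM), scalings, samples in the fit, variance models, added terms and each library left out.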

Additional observations from a re-analysis of the deposited data

Results flagged for a closer look

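ALL-MTG minus ALL sets libraries without MTG against libraries with it, and 2C+MTG minus 2C does the opposite. For 12 called genes with at least 5 TPM in 2C or in 2C+MTG the sign was the same in ALL-MTG minus ALL and in 2C+MTG minus 2C, with a log2 difference of at least 1 in the latter. The difference between the settings was not tested, since 2C and 2C+MTG have 1 library each, and these 2 libraries also differed in Xist. Higher both in ALL-MTG and in 2C+MTG were Cacna1a (2.41 for 2C+MTG minus 2C), Mical1 (2.29), Lbhd1 (2.19), Col18a1 (1.91), Tubb6 (1.58) and Lama3 (1.26). Lower in both were Lyz2 (-3.15), Gstt1 (-1.71), Eya2 (-1.57), Plxnd1 (-1.29), Tspan11 (-1.29) and Lcn2 (-1.07). C3 (-1.64), Kng2 (-1.19), C2 (-1.18), Steap4 (-1.69) and Hnmt (-1.01) were also lower in both, at under 5 TPM in both 2C libraries. No group had the 4 samples needed to look for a single library outlying within it.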

How the results depend on the processing

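For ALL-MTG against ALL, 76 genes were called. The count was 7 without a filter on TPM, 11 with only the 2 groups compared, 151 with the Xist level as a term and 24 with a term for libraries that list 100 to 150 nt genes. Leaving out 1 library gave 18 to 191. For ALL-MTG against ALL-FGF10 and ALL-VC, 173 were called, with 109 at a pseudocount of 0.1 TPM, 77 without a filter, 280 with only the groups compared, 49 with the Xist term and 285 with the short gene term, and 20 to 301 with 1 library left out. The cause was not tested. Other pseudocounts, filters, scalings and variance models stayed within 1.5 times of each count. Replicate numbers are shared by all groups, but nothing says that a number marks a shared animal or day, and the deviations of same-numbered ALL and ALL-MTG libraries correlated at 0.114 with 2 pairs only, so the samples were not taken as paired. With the replicate number as a block 48 genes were called against ALL, 44 of the 76 among them, and 127 against the other omissions. Of the 76 genes 73 lost the call under at least 1 of 19 settings and 0 changed sign. With 2 libraries per group and no depth, small differences could not be detected.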
